A study of Mus musculus with 12 samples.

Results

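The 9 genes described here, Myc, Max, Mxd1, Mxd4, Mxi1, Mnt, Mga, Mlx and Mlxip, encode the core of the MYC-MAX-MXD transcription factor network. They were chosen by their gene symbol in a table of read counts over annotated 3′ UTRs, and they are 9 of 19889 symbols in that table. They were proposed with earlier results of these data in view, including the amount of Myc recovered with CPEB4, so both comparisons that hold the CPEB4 precipitate are given for them as a description without a test.

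The samples came from 3T3-L1 cells, an immortalized mouse preadipocyte line that was differentiated into adipocytes. Up to day 2 the inducing medium held rosiglitazone at 2 µM, insulin at 10 µg/mL, dexamethasone at 1 µM and IBMX at 0.5 mM, and after that insulin alone. On day 8 the cells of all groups received 500 µM free fatty acids, of which 300 µM was palmitic acid and the rest 100 µM each of linoleic and oleic acid, for 24 h, so no untreated cells are compared. The 3 groups of 4 libraries are RNA precipitated with an antibody to CPEB4, a protein that binds cytoplasmic polyadenylation elements in 3′ UTRs (CPEB4 IP), RNA precipitated with control immunoglobulin (IgG IP), and RNA of the lysate (Input). Poly(A) RNA was selected in Input alone, so precipitation and selection cannot be told apart in any comparison with Input. The line is a cultured clone-derived model of fat cells, and no label says that the replicates are separate cultures, so p-values measure the spread between these libraries, which may be technical.

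MYC activates transcription when it pairs with MAX through a basic helix-loop-helix leucine zipper and binds E-box sequences. MXD1, MXD4, MXI1 and MNT compete for MAX and recruit SIN3 and histone deacetylases, which represses the same kind of sites, and MGA joins MAX to a Polycomb complex. MLX is the partner of the glucose-responsive factor MondoA, encoded by Mlxip, and also pairs with some of the MXD proteins. Myc mRNA is short-lived, and in preadipocytes the MYC family is known for its part in the proliferative phase before terminal differentiation.

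The libraries held 1114911 to 1159188 counts in CPEB4 IP, 88013 to 622976 counts in IgG IP and 858028 to 1578084 counts in Input. A floor of 3 counts corresponded to between 1.95 and 23.7 CPM, the count scaled to a library of 1e+06 counts with TMM factors, with the highest floors in IgG IP. In IgG IP replicates 3 and 4 the Lars2 feature took 63.9% and 63.1% of all counts, against 28.6% and 29.7% in replicates 1 and 2. Within each group, replicates 1 and 2 resembled each other more than they resembled replicates 3 and 4, and so did replicates 3 and 4. Per degree of freedom, the chi-square of the counts of 2 libraries for these pairs was 4.57 and 3.09 in CPEB4 IP, 1.63 and 1.64 in IgG IP and 10.9 and 25.9 in Input. Across the pairs it was 20.1 to 33.8 in CPEB4 IP, 13.9 to 16.3 in IgG IP and 32.6 to 40.7 in Input, so n = 4 may overstate the number of independent samples. All 12 adipocyte markers were in the table, and their summed level was 26420 to 34915 CPM in CPEB4 IP, 20208 to 35781 in IgG IP and 13394 to 27936 in Input. Of the macrophage markers, 6 were in the table, and their summed level was 26.0 to 75.9 CPM in CPEB4 IP, 49.6 to 137 in IgG IP and 23.2 to 282 in Input, highest in Input replicate 3. In Input, Adgre1 and Ptprc had 0 counts, while Lyz1, Csf1r, Lyz2 and Cd68 had 267, 96, 44 and 10. The preadipocyte or fibroblast markers summed to 164 to 402 CPM in CPEB4 IP, 283 to 707 in IgG IP and 1082 to 1920 in Input. In Input, Vim had 6210 counts, and Col1a1, Col3a1, Thy1, Dlk1, Pdgfra, Gata2 and Cd34 had 714, 374, 228, 179, 99, 52 and 6. Col3a1, Pdgfra and Cd34 had more counts in CPEB4 IP (740, 241 and 12), and the others had fewer.

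All 9 genes had a single feature in the table, and all 9 passed the filter on low counts, by which 8680 of 20586 features were tested. In mm10 coordinates, the Myc feature lies on the plus strand at chr15:61989909-61990374 and spans 466 bases, 13 of them past the RefSeq gene, as the shortest of the 9. The longest was that of Mga, with 4616 bases at chr2:119964966-119969581 on the plus strand. The Mlx feature, at chr11:101091166-101092207 on the plus strand, shares 385 of its 1042 bases with Psmc3ip on the opposite strand. Whether the counting used strand is not given in the sources used here, so the level of Mlx is uncertain. The features of Mxd4 (chr5:34173887-34176991) and Mxi1 (chr19:53371737-53375810) run 2693 and 2517 bases past the RefSeq gene of the GRCm38.p6 annotation. Filtering kept several of these genes through the precipitates: Myc lay above the filter's level of 8.96 CPM in 4 CPEB4 IP, 2 IgG IP and 1 Input library, and Max in 4 CPEB4 IP, 4 IgG IP and 0 Input libraries. For the filter's level, CPM were taken on library totals without TMM factors, unlike the other CPM given here.

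Myc, the activator of the network, was the member with the largest ratio of CPEB4 IP to IgG IP, and it was also high over Input. It had 223, 304, 93.2 and 85.2 CPM in CPEB4 IP replicates 1 to 4, against 18.6, 7.89, 9.12 and 6.06 CPM in IgG IP and 7.49, 7.28, 0 and 20.2 CPM in Input. Every CPEB4 IP library lay above every library of both other groups, while IgG IP and Input overlapped. The levels rest on 278, 386, 113 and 90 counts in CPEB4 IP, on 3, 1, 2 and 2 counts in IgG IP and on 10, 8, 0 and 31 counts in Input. The Input level is that of bulk RNA, in which fewer cells of a type and less RNA per cell cannot be told apart.

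The group means of Myc were 176 ± 106 CPM for CPEB4 IP, 10.4 ± 5.61 for IgG IP and 8.74 ± 8.39 for Input (SD, n = 4 each). Its fitted log2 fold change of CPEB4 IP over IgG IP was 4.13 (standard error 0.85), a place of 52 among the 8680 tested features. Relative to the median feature, which itself lay at 0.24, the Myc change was 3.89, and over 4 ways of scaling the libraries it stayed between 3.88 and 3.96. Summed over the libraries, the ratio of CPEB4 IP to IgG IP was 19.0, with an exact 95% interval for counting error alone of 9.58 to 44.0. In same-numbered replicates the ratio was 12.0 (4.06 to 58.5), 38.5 (6.87 to 1524), 10.2 (2.76 to 85.4) and 14.0 (3.78 to 118), so the few IgG IP counts bound it from below better than from above.

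**Figure D1:**
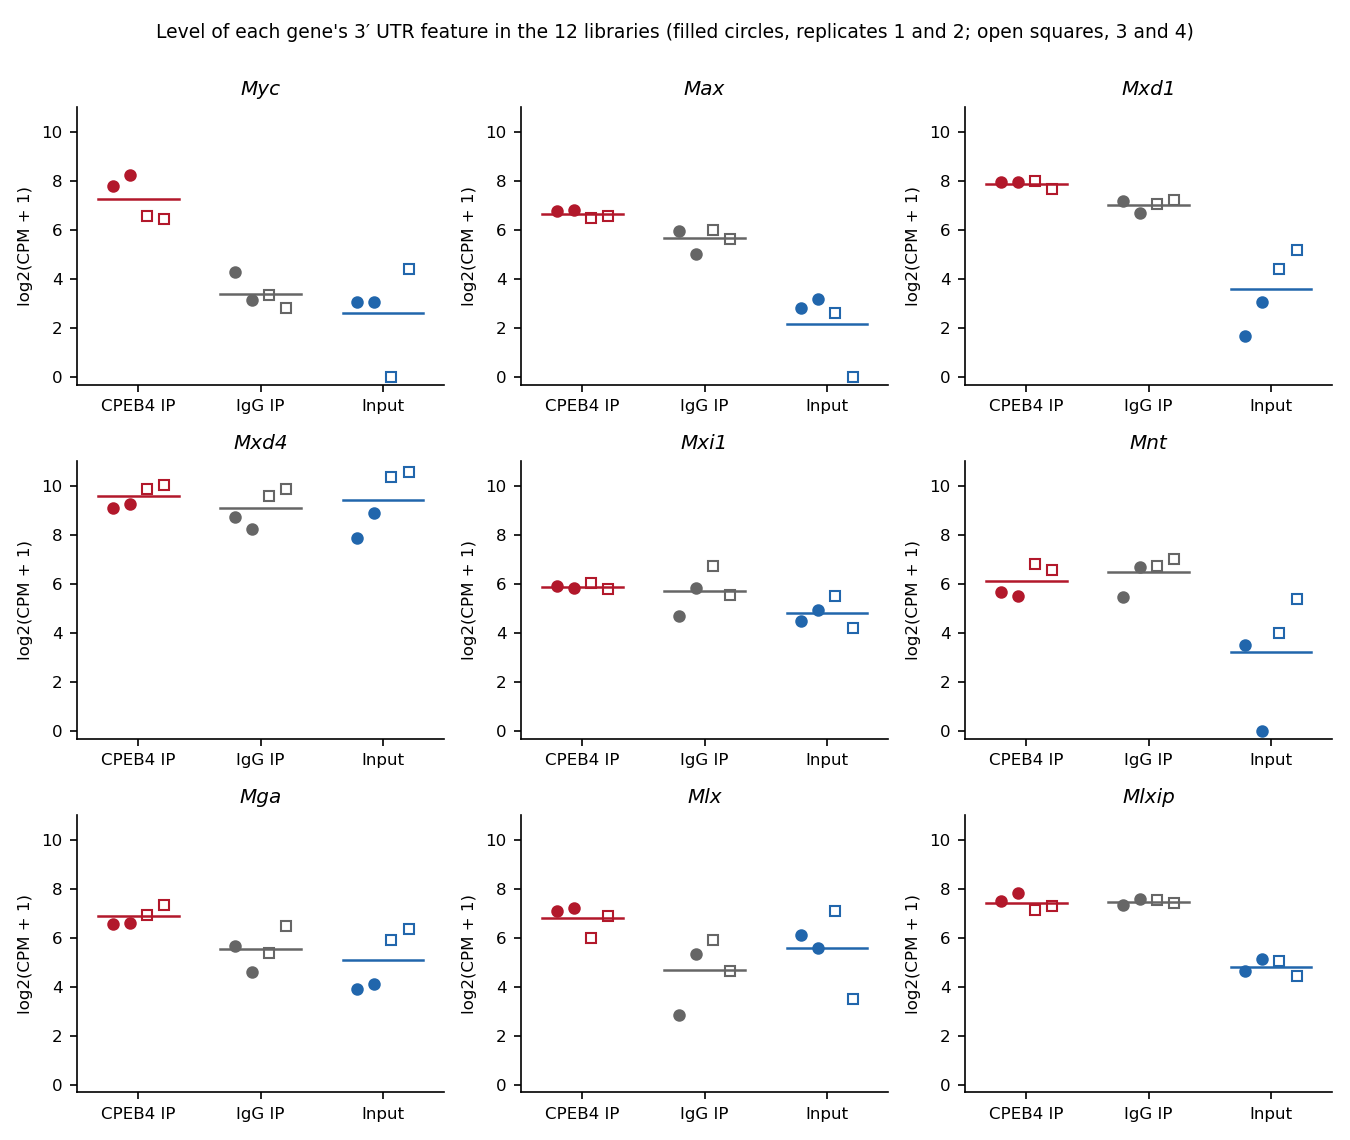
Level of each gene as log2(CPM + 1) on the vertical axis in the 12 libraries, by group from CPEB4 IP on the left to Input on the right. Points are libraries and lines the means of 4; all 4 Myc libraries of CPEB4 IP, at 85.2 to 304 CPM, lie above every other Myc library, whereas Mlxip overlaps between CPEB4 IP and IgG IP and is lower in Input.

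The 2 higher Myc values in CPEB4 IP were both in replicates 1 and 2. The log2 difference of replicates 1 and 2 minus replicates 3 and 4 within CPEB4 IP was 1.56 (standard error 0.78), with an adjusted p of 0.705 in edgeR's quasi-likelihood test over all features. Within replicates 1 and 2 alone the log2 fold change of CPEB4 IP over IgG IP was 3.90, and within replicates 3 and 4 alone it was 3.56. Without CPEB4 IP replicate 1 it was 3.84 and without CPEB4 IP replicate 2 it was 3.55. For these settings and for replicates 3 and 4 alone, Myc was not among the features called at an adjusted p of 0.05, as it was over all 12 libraries, which describes the fit and is no test of a gene chosen on this value. Over Input the log2 fold change was 4.27 (standard error 0.75). In replicate 3, where Input had 0 Myc counts, the CPEB4 IP level was at least 30.7-fold higher than a floor of 3 counts per library, and in replicate 4 the ratio was 4.22 (2.78 to 6.56). In replicates 3 and 4 alone the change over Input was 3.07, and Myc was not among the features called.

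Max, the shared partner of MYC and the MXD proteins, was high in both precipitates and close to the floor in Input. It had 108, 113, 89.9 and 94.6 CPM in CPEB4 IP, against 62.0, 31.6, 63.8 and 48.5 CPM in IgG IP and 5.99, 8.19, 5.06 and 0 CPM in Input. The 3 groups did not overlap and stood in this order, with 22 counts over the 4 Input libraries. Its log2 fold change was 0.96 (standard error 0.60) for CPEB4 IP over IgG IP and 4.39 (0.67) for CPEB4 IP over Input.

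Mxd1, an antagonist of MYC that is induced in many differentiating cells, showed the same order of the groups. It had 249, 245, 251 and 204 CPM in CPEB4 IP, against 143, 103, 132 and 148 CPM in IgG IP and 2.25, 7.28, 20.2 and 35.8 CPM in Input. No group overlapped another. Fitted log2 fold changes were 0.84 (standard error 0.53) for CPEB4 IP over IgG IP and 3.83 (0.58) for CPEB4 IP over Input.

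Mxd4, the MXD family member of quiescent and differentiated cells, had 539, 615, 933 and 1058 CPM in CPEB4 IP, against 428, 299.9, 761 and 933 CPM in IgG IP and 231, 468, 1304 and 1525 CPM in Input. All 3 groups overlapped, and in each of them the values of replicates 3 and 4 lay above those of replicates 1 and 2. On the log2 scale its change was 0.37 (standard error 0.52) for CPEB4 IP over IgG IP and -0.17 (0.51) for CPEB4 IP over Input.

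Mxi1, which encodes a MAX-binding repressor also called MXD2, had 58.6, 55.9, 65.1 and 53.9 CPM in CPEB4 IP, against 24.8, 55.2, 104.8 and 45.5 CPM in IgG IP and 21.7, 30.03, 44.5 and 17.6 CPM in Input. CPEB4 IP lay within the range of IgG IP and above that of Input. Over Input the log2 fold change of CPEB4 IP was 1.04 (standard error 0.48), not among those called, and with the replicate number as a block it was 1.14 and among them. The log2 fold change was 0.01 (0.49) for CPEB4 IP over IgG IP, and its sign turned under 14 of 21 alternatives, among them 2 other scalings. Relative to the median feature it was below 0 under all 4 scalings, between -0.24 and -0.18.

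Mnt, the constitutively expressed MAX-binding repressor, was the member with the lowest ratio of CPEB4 IP to IgG IP. It had 49.8, 44.1, 110.5 and 92.7 CPM in CPEB4 IP, against 43.4, 102.6, 104.8 and 127 CPM in IgG IP and 10.5, 0, 15.2 and 41.04 CPM in Input. CPEB4 IP overlapped IgG IP, and both lay above Input. Fitted log2 fold changes were -0.36 (standard error 0.74) for CPEB4 IP over IgG IP and 2.12 (0.75) for CPEB4 IP over Input. It was no longer among the features called over Input under 8 of 21 alternatives, among them leaving out CPEB4 IP replicate 1, 3 or 4, IgG IP replicate 3 or 4, or Input replicate 1 or 3 (1.68 to 2.00).

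Mga, the giant MAX partner that also carries a T-box domain, had 93.9, 97.6, 122 and 163 CPM in CPEB4 IP, against 49.6, 23.7, 41.03 and 87.9 CPM in IgG IP and 14.2, 16.4, 59.7 and 80.8 CPM in Input. Every CPEB4 IP library lay above every library of IgG IP and of Input. Its log2 fold change was 1.18 (standard error 0.57) for CPEB4 IP over IgG IP and 1.47 (0.55) for CPEB4 IP over Input. Mga was no longer among the features called over Input under 11 of 22 alternatives, among them leaving out any of the 4 CPEB4 IP libraries, IgG IP replicate 3 or 4, or Input replicate 1 or 2 (1.18 to 1.46).

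Mlx, the hub of the Mondo branch, had 136, 146, 63.5 and 117 CPM in CPEB4 IP, against 6.20, 39.5, 59.3 and 24.2 CPM in IgG IP and 68.2, 47.3, 136 and 10.4 CPM in Input. CPEB4 IP lay above IgG IP by a narrow gap in replicate 3 and overlapped Input, whose replicate 3 matched the upper CPEB4 IP values. The ratio of CPEB4 IP to IgG IP in replicate 1 was 21.9, with a counting interval of 3.87 to 868 because IgG IP held 1 count, and in replicate 3 it was 1.07 (0.591 to 2.10). The log2 fold change was 1.83 (standard error 0.69) for CPEB4 IP over IgG IP and 0.83 (0.61) for CPEB4 IP over Input, with the overlap with Psmc3ip unresolved.

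Mlxip, which encodes MondoA, had 181, 224, 139 and 156 CPM in CPEB4 IP, against 161, 189, 187 and 170 CPM in IgG IP and 23.97, 34.6, 32.4 and 20.8 CPM in Input. CPEB4 IP and IgG IP overlapped fully, and both lay far above Input. On the log2 scale its change was -0.01 (standard error 0.32) for CPEB4 IP over IgG IP and 2.65 (0.33) for CPEB4 IP over Input.

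**Figure D2:**
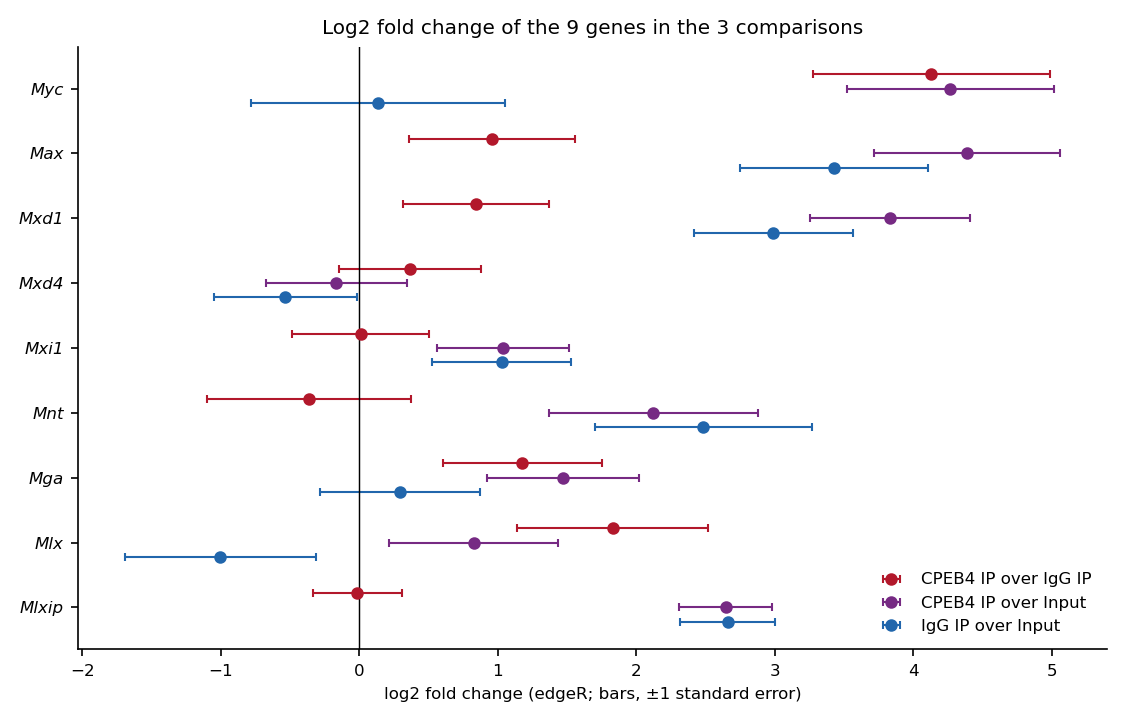
Fitted log2 fold change on the horizontal axis for each of the 9 genes in the 3 comparisons, with bars of 1 standard error. Myc is near 4 in both comparisons of CPEB4 IP and near 0 (0.14) for IgG IP over Input; Max, Mxd1, Mnt and Mlxip are between 2.49 and 3.43 for IgG IP over Input.

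Over the 9 genes, the median log2 fold change of CPEB4 IP over IgG IP was 0.84, beside 0.24 over all tested features. At an adjusted p of 0.05, 1 of the 9 genes (Myc) was called higher, and 4.57% of all features were called higher and 1.3% lower in this comparison. In the same comparison 5 of the 9 did not overlap between groups and were higher (Myc, Max, Mxd1, Mga and Mlx), as were 23.2% of all features. Of all calls in either direction, 77.8% were higher in CPEB4 IP with TMM, 54.0% with DESeq2-type size factors and 93.3% with library totals, and the median feature lay at 0.24, -0.03 and 0.52 under these scalings. Over Input, 6 of the 9 were called higher in CPEB4 IP (Myc, Max, Mxd1, Mnt, Mga and Mlxip), and Mxi1 too with the replicate block, and 27.6% of all features were called higher and 26.3% lower. The groups did not overlap for 7 of the 9 (the same 6 and Mxi1), as for 30.9% of all features. As both comparisons served to choose the genes, nothing is read from these counts.

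**Figure D3:**
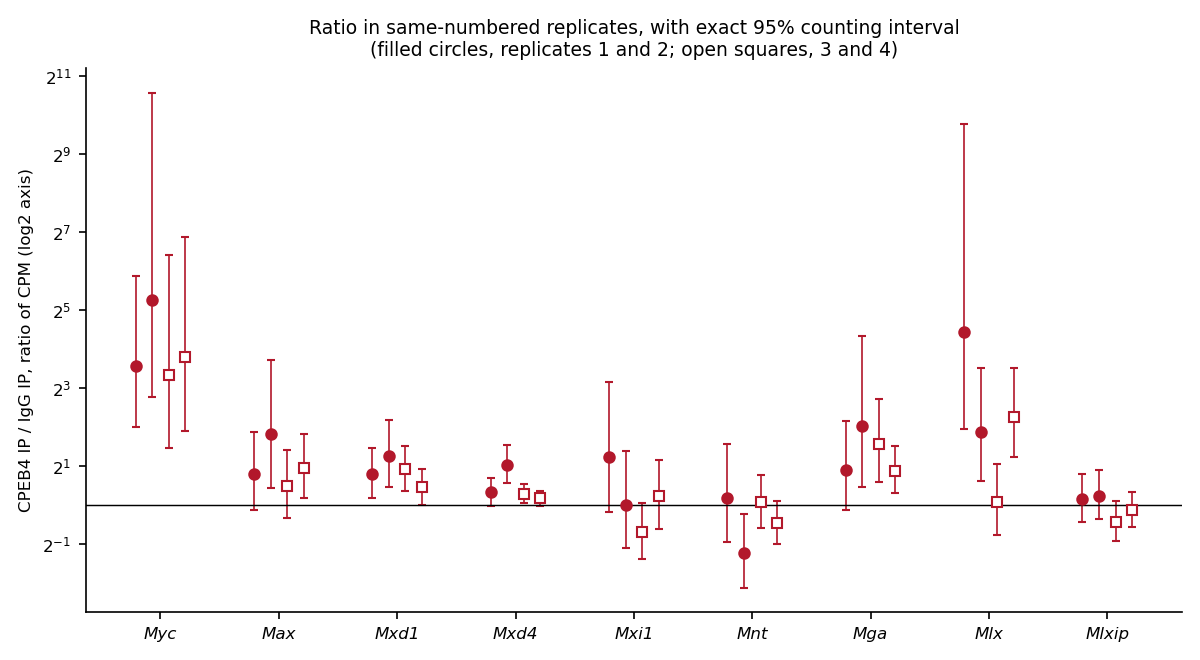
Ratio of CPM in CPEB4 IP over IgG IP on the vertical log2 axis for each gene in the 4 same-numbered replicates, with the exact 95% counting interval as bars. The Myc ratios are 12.0, 38.5, 10.2 and 14.0, and the ratios of Mxi1, Mnt and Mlxip lie on both sides of 1.

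The comparison of IgG IP with Input did not use the CPEB4 antibody, though it shares its libraries with the other comparisons, and it was tested in the same edgeR fit. Both comparisons that served to choose the genes were set against these groups, so the adjusted p-values of IgG IP over Input are no independent evidence. Here 4 of the 9 genes rose (Max, Mxd1, Mnt and Mlxip) and 0 fell (0 also at an unadjusted p under 0.05 and with DESeq2), while 17.5% of all features rose and 23.9% fell. The log2 fold change was 2.66 for Mlxip (standard error 0.34, adjusted p 1.86e-05), 2.99 for Mxd1 (0.57, adjusted p 0.000637), 3.43 for Max (0.68, adjusted p 0.000807) and 2.49 for Mnt (0.78, adjusted p 0.0179). Each of these was higher in 4 of 4 same-numbered replicates, as were 24.9% of all features, and in each the groups did not overlap, as in 15.9% of all features. Of the Input libraries, 0 lay above the filter's level for Max, 2 for Mxd1, 3 for Mnt and 4 for Mlxip, against all 4 IgG IP libraries for each. Max, Mxd1 and Mnt were thus tested only because they were high in the precipitates, and the count of 4 is no support for the network as a whole. With no filter, the changes of Max, Mxd1 and Mnt were 3.24, 2.92 and 2.38, with adjusted p-values of 7.43e-05, 2.08e-06 and 0.00126 in edgeR. For the same 4 genes the log2 fold change of CPEB4 IP over IgG IP lay between -0.36 and 0.96.

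The other 5 genes did not pass. Myc had a log2 fold change of IgG IP over Input of 0.14 (standard error 0.92, adjusted p 0.925 in edgeR's test), Mga 0.29 (0.58, adjusted p 0.728), Mxi1 1.03 (0.50, adjusted p 0.112), Mxd4 -0.53 (0.52, adjusted p 0.441) and Mlx -1.004 (0.69, adjusted p 0.265). Mxi1 passed with Lars2 left out of the scaling (1.28, adjusted p 0.0446) and with DESeq2 (1.08, adjusted p 0.0441), and its adjusted p reached 0.639 among the 21 alternatives. With 8 Myc counts over the 4 IgG IP libraries, a difference from Input was hardly detectable at this depth, and its sign turned under 8 of 22 alternatives. Within replicates 1 and 2 alone the Max, Mxd1, Mnt and Mlxip changes were 2.62, 4.60, 3.53 and 2.47. Within replicates 3 and 4 alone they were 4.57, 2.31, 2.03 and 2.75, and all 8 passed. Both fits kept the features filtered over all 12 libraries, so for Max, Mxd1 and Mnt they are no independent check. The Mnt call was lost without IgG IP replicate 3 (2.25) or replicate 4 (2.09).

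Length moved with the recovery in IgG IP. Of the features with at least 2000 bases, 33.5% rose in IgG IP over Input, against 9.48% of shorter ones, and in CPEB4 IP over Input these shares were 42.9% and 19.9%. For CPEB4 IP over IgG IP they were 3.34% and 5.20%. Mxd1, Mnt and Mlxip are among the longer features, with 3827, 2405 and 4419 bases, and so are Mxd4, Mxi1 and Mga, which did not pass. Max has 1299 bases and Myc 466. The part of length in these results was not tested.

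The 2 pairs of replicates differed most in Input, where no antibody was used. The split was chosen after the pattern was seen in these same libraries, so its adjusted p-values describe the pattern and are no independent evidence. The log2 difference of replicates 1 and 2 minus replicates 3 and 4 within Input was -2.59 for Mxd1 (standard error 0.53, adjusted p 0.00962), -2.02 for Mxd4 (0.34, adjusted p 0.00501) and -2.19 for Mga (0.49, adjusted p 0.0135) in edgeR's test over all features. These 3 of 9 genes were thus lower in Input replicates 1 and 2, where 14.8% of all features differed in either direction. The share of all features that was lower there was not counted. Within CPEB4 IP and within IgG IP 0 of the 9 differed by this test, where 0.0806% and 0.0922% of all features did. An unadjusted p under 0.05 was reached by Mxd4 alone among the 9, with -0.79 (standard error 0.33) in CPEB4 IP and -1.21 (0.35) in IgG IP. Whether the change of a gene between groups itself differed between the replicate pairs was also tested, and 0 of the 9 passed in any comparison. Of the 27 unadjusted p-values, 4 were under 0.05, all in the comparisons with Input. Of all 8680 features, 1546 had an unadjusted p under 0.05 in CPEB4 IP over Input and 1410 in IgG IP over Input, so nothing is read from these 4. The closest was Mxd1 in CPEB4 IP over Input, with 2.70 (standard error 0.67, adjusted p 0.0701), beside 1.23% of all features that passed (0.196% for IgG IP over Input). For CPEB4 IP over IgG IP, 0 of 8680 features passed this test in edgeR, and 240 had an unadjusted p under 0.05; no other tool was run on these tests between pairs.

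Per kilobase of 3′ UTR feature, the order of the 9 genes by their means was not alike in the 3 groups. The scale depends on the annotated width, of which 2693 of 3105 bases of Mxd4 and 2517 of 4074 bases of Mxi1 lie past the RefSeq gene. By CPM alone, which favours long features, Myc would take place 3 in CPEB4 IP, 9 in IgG IP and 8 in Input, and Mxd4 place 1 in all 3 groups. In CPEB4 IP Myc came first with 378 ± 227 CPM per kb and Mxd4 second with 253 ± 80.1 (SD, n = 4), and the ranges of these neighbours overlapped. Mlx followed with 111, Max with 77.9, Mxd1 with 62.1, Mlxip with 39.6, Mnt with 30.9, Mga with 25.8 and Mxi1 with 14.3 CPM per kb. The steps from Mxd4 to Mlx, Max to Mxd1, Mxd1 to Mlxip and Mga to Mxi1 separated neighbours whose ranges did not overlap. In IgG IP Mxd4 was first with 195 ± 94.2 CPM per kb, above the range of Mlxip at 40.0, and Myc was in place 7 with 22.4 ± 12.0. From Mlxip down, each gene's range in IgG IP overlapped that of the next, and the Myc level rests on 8 counts, so these places are not resolved. In Input Mxd4 was again first with 284 ± 203 CPM per kb, Mlx second with 62.8 and Myc in place 3 with 18.8 ± 18.0, and each gene's range overlapped that of its neighbour. Mxd1 and Max were last in Input, with 4.29 and 3.70 CPM per kb.

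**Figure D4:**
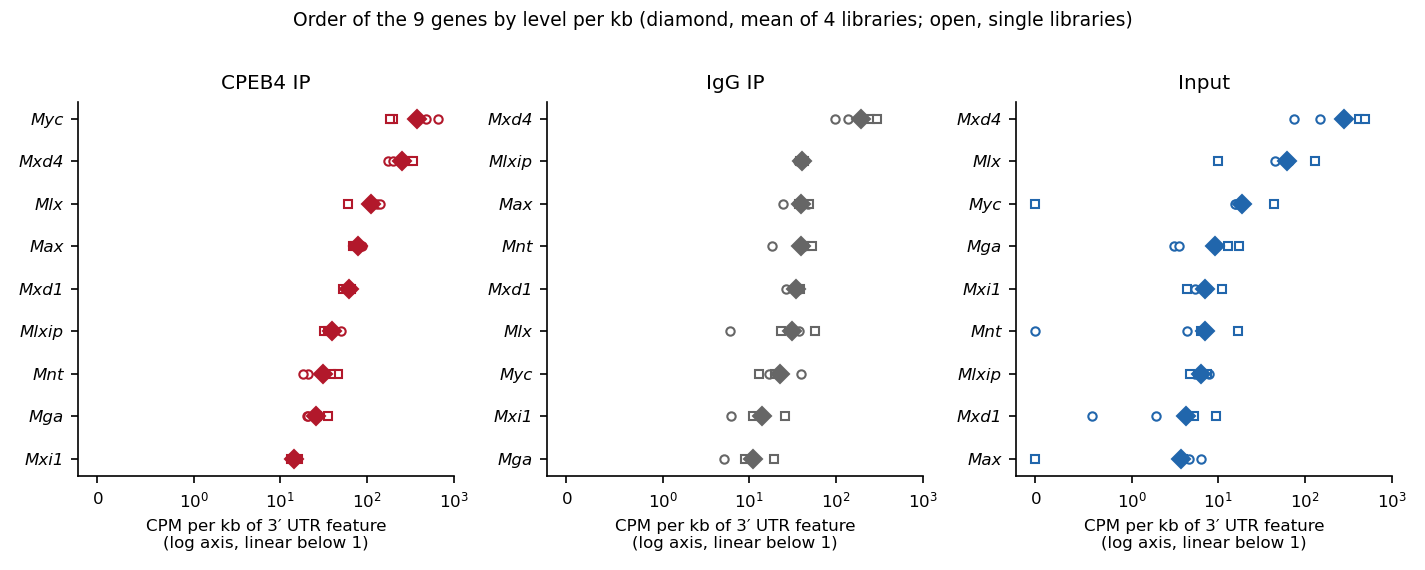
Level in CPM per kb of 3′ UTR feature on the horizontal axis (log axis, linear below 1), with the genes of each group ordered from the highest mean at the top. Diamonds are means of 4 libraries, open circles replicates 1 and 2 and open squares replicates 3 and 4; Myc is at the top in CPEB4 IP, in place 7 in IgG IP and in place 3 in Input, where single libraries spread widest.

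In the authors' deposited table, which holds their own combined analysis of the 3 kinds of library, Myc carried the mark of a call in the interaction column and the other 8 genes did not. The threshold behind this mark is not given in the sources used here. The authors' deposited table gives Myc a log2 interaction term of 3.77 with a standard error of 1.37 and an adjusted p of 0.0752. For Mga the authors' deposited table gives 0.91 (0.91), and for Mnt it gives -0.67 (1.33).

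The 5 features whose log2 CPM over the 12 libraries was most like that of Myc, among 8486 with a symbol, were Vasp, Tmem230, Lsm3, Nudcd2 and Rbms1, with Pearson's r of 0.961, 0.958, 0.958, 0.958 and 0.954. The 12 libraries form 3 groups, so this measure mostly follows the group levels and is given as a description. Of the other members, Mxd1 had an r with Myc of 0.64, Max 0.63, Mga 0.60, Mlxip 0.51, Mnt 0.32, Mlx 0.31, Mxi1 0.27 and Mxd4 0.03.

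Of the remaining genes of the network, Mycn, Mycl and Mlxipl gave few counts, and Mxd3 was found mainly in Input. Mycn, the neuronal MYC paralog, had 0 counts in all 12 libraries. Mycl had 67 counts over the CPEB4 IP libraries and 11 over the IgG IP libraries, and in Input all of its 41 counts were in replicate 3. Mlxipl, which encodes the Mondo paralog ChREBP, had at most 8 counts in any library and was not tested. Mxd3, the MXD member of proliferating cells, had 5.19 ± 4.21 CPM in CPEB4 IP, 13.1 ± 16.5 in IgG IP and 80.8 ± 11.6 in Input (SD, n = 4 each). It fell by 3.94 on the log2 scale in CPEB4 IP over Input (adjusted p 0.000452) and by 2.66 in IgG IP over Input (adjusted p 0.0146, edgeR), and its feature overlaps Prelid1 on the opposite strand.

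Lists of genes around the network were then set beside the 9, for CPEB4 IP set against IgG IP. These lists, too, were chosen with earlier results of these data known, so their counts and adjusted p-values are no independent evidence. Over all features 4.57% were called higher and 1.3% lower in this comparison. Of 7 tested partners of MGA in the Polycomb complex PRC1.6, 0 passed edgeR's adjusted p of 0.05, with a median log2 fold change of 1.21 beside 0.24 over all features. Of these 7, 2 had an unadjusted p under 0.05 in edgeR and 1 was called by DESeq2. Of 12 tested MYC cofactors, mostly coactivators but also Zbtb17, the partner in repression, and the MYC inhibitor Bin1, 0 passed in edgeR, with a median of 1.34, 3 had an unadjusted p under 0.05 and 0 were called by DESeq2. Of 13 tested subunits of the SIN3 and histone deacetylase machinery that the MXD proteins recruit, 2 rose and 0 fell in edgeR, with a median of 0.45, and none of its lower genes had an unadjusted p under 0.05, while DESeq2 called 1 lower. Rbbp4, a histone-binding subunit, had 589 ± 195 CPM in CPEB4 IP, against 108 ± 24.2 CPM in IgG IP, a log2 fold change of 2.45 (standard error 0.43, adjusted p 0.00384), and it overlaps Sync on the opposite strand. The other was Hdac1, named after its value was seen, with 2.91 (0.82, adjusted p 0.0475) and 4 counts over the IgG IP libraries.

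Set against the same 4.57% higher and 1.3% lower over all features, of 15 tested regulators of MYC protein stability 2 rose and 0 fell in edgeR, with a median of 1.07, while 2 lower genes had an unadjusted p under 0.05 and DESeq2 called 0 lower. Pim3, a kinase of the family that phosphorylates MYC, had 1241 ± 604 CPM in CPEB4 IP, against 168 ± 36.9 CPM in IgG IP, a log2 fold change of 2.89 (standard error 0.49, adjusted p 0.0036 in edgeR). Set, an inhibitor of the phosphatase PP2A, had 302 ± 38.7 CPM in CPEB4 IP, against 70.6 ± 18.4 CPM in IgG IP, a log2 fold change of 2.10 (0.36, adjusted p 0.0036). Of 8 tested other factors with the same dimerization domain, 1 rose, with a median of 1.48. It was Srebf2, the regulator of cholesterol synthesis genes, with 147 ± 31.9 CPM in CPEB4 IP, 37.9 ± 16.5 in IgG IP and a log2 fold change of 1.89 (0.45, adjusted p 0.0214).

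Of 38 tested textbook targets of MYC, 5 rose and 3 fell, with a median of 0.49, again beside 4.57% and 1.3% of all features. Slc2a1, the glucose transporter GLUT1, rose by 2.74 on the log2 scale (standard error 0.63, adjusted p 0.0181), and the mitochondrial chaperonins Hspd1 and Hspe1 rose by 1.94 (0.34, adjusted p 0.00397) and 2.22 (0.61, adjusted p 0.0415). Pkm, which encodes pyruvate kinase, fell by 1.84 (0.30, adjusted p 0.00258), and Ncl, which encodes nucleolin, fell by 1.34 (0.37, adjusted p 0.0431) in the same edgeR test. Of 14 tested targets of MondoA and ChREBP, 3 rose and 1 fell, with a median of 1.14. Txnip, the thioredoxin-interacting protein gene that MondoA controls directly, had 5965 ± 3684 CPM in CPEB4 IP, against 633 ± 298 CPM in IgG IP, a log2 fold change of 3.24 (0.78, adjusted p 0.0227). Hk2, which encodes hexokinase and stands in both target lists, rose by 1.56 (0.37, adjusted p 0.0207) and Pdk4, the pyruvate dehydrogenase kinase gene, by 1.39 (0.37, adjusted p 0.0372), while G6pdx fell by 1.68 (0.39, adjusted p 0.0196). These rises and falls are relative amounts in the precipitates, not changes of expression.

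Of the list genes named here for CPEB4 IP over IgG IP, the 13 other than Hdac1 were refitted under the alternatives, and Hdac1 was not. These 13 kept their sign under all 22, but 4 passed without CPEB4 IP replicate 1, 2 without CPEB4 IP replicate 2, and 0 in replicates 3 and 4 alone. Without CPEB4 IP replicate 4 or IgG IP replicates 1 to 4, 8, 8, 7, 6 and 6 passed. Pim3 and Pkm each passed under 21 of 22 alternatives, Rbbp4 and Set under 20, Hspd1 under 19, Txnip under 15 and Pdk4 under 6.

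**Figure D5:**
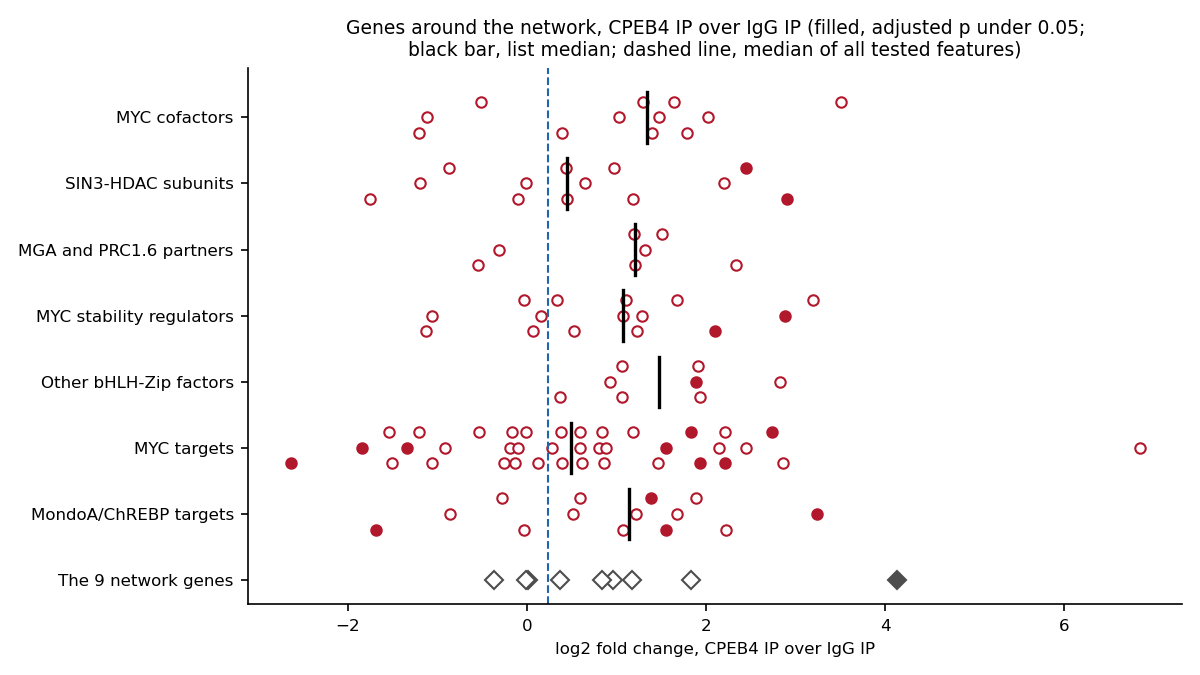
Log2 fold change of CPEB4 IP over IgG IP on the horizontal axis for the tested genes of 7 lists and, in the lowest row, the 9 network genes. Filled symbols passed an adjusted p of 0.05, black bars are list medians and the dashed line is the median of all tested features at 0.24; Myc, at 4.13, is the filled diamond on the right.

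Over Input the same lists were compared across poly(A) selection as well as precipitation, which cannot be told apart. Over all features, 27.6% rose and 26.3% fell in CPEB4 IP over Input, and 17.5% rose and 23.9% fell in IgG IP over Input. Of the PRC1.6 partners of MGA, 3 of 7 rose in CPEB4 IP over Input and 3 of 7 in IgG IP over Input, with Rybp at 4.36 (standard error 0.60, adjusted p 1.73e-05) and 3.15 (0.59, adjusted p 0.000557). In Input, Rybp had 9.52 ± 9.33 CPM and Rnf2, another of the 3, had 4.59 ± 5.77 CPM. Rybp and Rnf2 were thus tested only because they were high in the precipitates, and these counts are no support for the list. Of the MYC targets, 10 of 38 (26.3%) rose, a share near that of all features, and 12 fell in CPEB4 IP over Input, and 4 rose and 15 fell in IgG IP over Input. Pkm had 43.9 ± 7.93 CPM in CPEB4 IP, 157 ± 35.2 in IgG IP and 2987 ± 332 in Input, and so was depleted in both precipitates (edgeR adjusted p 6.29e-09 and 2.08e-07). Of the Mondo targets, 7 of 14 rose and 2 fell in CPEB4 IP over Input, and 4 rose and 2 fell in IgG IP over Input. Hk2 rose by 4.71 (0.42, adjusted p 2.52e-07) and 3.16 (0.40, adjusted p 1.53e-05) in these comparisons. In CPEB4 IP over Input, 2 of 12 MYC cofactors rose and 5 fell, and 2 of 13 SIN3 and deacetylase subunits rose and 5 fell. Of 15 regulators of MYC stability 7 rose and 2 fell, and of 8 other factors with the same domain 4 rose and 0 fell. In IgG IP over Input, 0 rose and 4 fell both among the cofactors and among the SIN3 subunits. Of the stability regulators 1 rose and 2 fell, and of the other factors 1 rose and 1 fell. The values of both comparisons share the Input libraries.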

How the data were processed

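RNA precipitated with an antibody to CPEB4 or with control immunoglobulin, and Input RNA, were sequenced from 3T3-L1 adipocytes (4 libraries each, 12 in all). The deposited values used here are raw counts of reads per 3′ UTR feature in mm10. The same deposited table also holds the authors' log2 normalized counts and their group means, which were not used. The tools listed in the submitters' processing notes are featureCounts, DESeq2 1.22.1, Bowtie2 2.2.2 and Bowtie 1.2.3. The annotation release and the use of strand in counting are not given in the sources used here. The authors' deposited table of their own interaction analysis holds log2 fold changes, standard errors, p-values and a call score, of which those printed were copied as given. Libraries were grouped by the labels.

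Counts were fitted with edgeR 4.0.16 in R 4.3.3: filterByExpr (minimum count 10, minimum total 15), TMM scaling, 1 coefficient per group over all 12 libraries with no replicate block, and quasi-likelihood tests with p-values adjusted by Benjamini-Hochberg over 8680 features. A feature was called at an adjusted p of 0.05. CPM use TMM-scaled library sizes, except at the filter's level, where they use library totals. Counting intervals (exact, 95%) and the floor of 3 counts cover counting error only. Depth was 88013 to 1578084 counts per library, and IgG IP was the shallowest group. The test was also run on simulated counts, and the outcome of that run is not given here. That run is no evidence that the p-values hold for libraries that resemble each other in pairs, as these do.

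The members and the gene lists were chosen with earlier results of these data known. All 9 members are named. For CPEB4 IP over IgG IP, up to 3 higher and 3 lower called genes of each list with the largest changes and at least 10 counts in each group were named. Over Input only some of the genes picked by this rule are named. Same-numbered libraries of CPEB4 IP and IgG IP had correlated deviations from their group means (r of 0.181 to 0.321). For CPEB4 IP and Input r was 0.183 to 0.273, and for IgG IP and Input 0.0717 to 0.172. The same number gave the best match in replicates 1, 3 and 4 for CPEB4 IP over IgG IP. It did so in 1 and 4 for CPEB4 IP over Input, and in 1, 2 and 4 for IgG IP over Input. The main fit does not use these pairs, and blocked values are given where they change a call. Blocking by replicate number changed 1 member's call: Mxi1 in CPEB4 IP over Input passed, with 1.14. The alternatives were other scalings, other filters, DESeq2 1.42.0, the replicate block, fewer libraries and each library left out. The tests between replicates 1 and 2 and replicates 3 and 4 and the alternatives for list genes were added after the data were seen. Summing several features of a gene could not be run, since each member has 1 feature. Sequences of 3′ UTRs are not used here.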

Additional observations from a re-analysis of the deposited data

Results flagged for a closer look

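Among the 27 sets of 4 CPM values tested (9 genes in 3 groups), 1 held a library far from the other 3. Mxd1 in CPEB4 IP replicate 4 had 204 CPM, against 245 to 251 CPM in the other 3 CPEB4 IP libraries, a gap set by how closely those 3 agree. Chance alone marks about 1 in 20 such sets.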

How the results depend on the processing

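The count of features called in CPEB4 IP over IgG IP (510) depended most on the processing. It was 1035 with DESeq2, 2269 with only the 8 libraries compared and 0 with replicates 3 and 4 alone (1168 at an unadjusted p under 0.05 in edgeR; DESeq2 was not run on them), and it ranged from 95 to 966 when 1 library was left out. The lowest counts were without CPEB4 IP replicate 2 (95) and replicate 1 (135), it was 333 without CPEB4 IP replicate 4 and 323, 314, 236 and 251 without IgG IP replicates 1 to 4, and the highest was without Input replicate 3 (966). With a mean count of at least 50, which tests fewer features, the count was 2482 instead of 4676 for CPEB4 IP over Input and 2230 instead of 3594 for IgG IP over Input. These 2 counts ranged from 3940 to 5265 and from 2975 to 4474 when 1 library was left out. With the replicate block the 3 counts were 672, 4862 and 3718. Of the calls in CPEB4 IP over IgG IP, 77.8% were higher with TMM, 66.8% with Lars2 left out and 43.9% with a mean count of at least 50.

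The 9 genes gave 585 values under 22 alternatives, of which 518 kept their direction and side of the threshold, 25 lost the call, 7 gained it and 35 turned their sign; each of the latter was uncalled. Myc in CPEB4 IP over IgG IP kept its sign in all 22 (3.55 to 4.53) and its call in 19. With only the 8 precipitate libraries, Max (0.80), Mxd1 (0.68), Mlx (1.68) and Mga (0.99) also passed over IgG IP. Mxi1 in CPEB4 IP over IgG IP turned to -0.28 with DESeq2-type size factors and with DESeq2, -0.17 with Lars2 left out, -0.15 with the 8 libraries and -0.32 in replicates 3 and 4 alone, and ranged from -0.23 to 0.47 when 1 library was left out. Mlxip in the same comparison turned to 0.14 with library totals and ranged from -0.33 to 0.082 when 1 library was left out, and Mxd4 turned to -0.018 with a mean count of at least 50. Myc in IgG IP over Input turned to -0.057 with library totals, -0.084 with no filter and -0.49 in replicates 3 and 4 alone, and ranged from -0.53 to 1.07 when 1 library was left out. Mga in that comparison turned to -0.084 with library totals and -0.10 in replicates 3 and 4 alone, and ranged from -0.35 to 1.13. Mxd4 in CPEB4 IP over Input turned to 0.10 with the replicate block and 0.28 in replicates 1 and 2 alone, and ranged from -0.48 to 0.42, and in IgG IP over Input from -1.01 to 0.21, with the upper end of both without Input replicate 4. The causes were not tested. The named list genes gave 2008 values, of which 1774 kept their call and 234 lost it, and 211 of 1050 list counts moved by over 1.5 times. Depth limits Myc, Mlx and Max most, with 8, 27 and 44 counts over the 4 IgG IP libraries, followed by Mga and Mxi1 with 49 each.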
